A study of Homo sapiens with 9 samples.

Results

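The genes described here are 33 transcriptional targets of the tumour suppressor p53, chosen by symbol with earlier results of these data known, and found among the 60609 genes counted by RNA sequencing in MCF-10A cells. Each of the 33 was matched once by its gene identifier, and all 33 passed the filter on low counts, with 648 counts of BBC3 as the lowest value of any member in any library. MCF-10A is a non-tumorigenic human breast epithelial line. In 2 knock-in lines the gene of the catalytic PI 3-kinase subunit, PIK3CA, carries the H1047R change of the kinase domain or the E545K change of the helical domain, and the parental line (WT) has neither. Each genotype has 3 libraries of ribosome-depleted RNA. The H1047R and E545K lines were maintained without epidermal growth factor (0 ng/ml EGF) and WT with 20 ng/ml, all in 5% horse serum with insulin, hydrocortisone and cholera toxin. Every line then spent 24 h in 0.2 ng/ml EGF and 1% stripped serum before harvest. Maintenance medium and genotype therefore cannot be told apart in comparisons with WT. The labels do not say whether a knock-in line is 1 clone, nor whether the 3 libraries come from separate cultures. P-values therefore rest on the spread among libraries within genotypes, pooled over the 3 genotypes, some or all of which may be technical.

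p53 is a transcription factor kept scarce by the ubiquitin ligase MDM2, which is itself a p53 target and so closes a feedback loop. When DNA damage, oncogene activity or ribosome stress frees p53 from MDM2, it binds pairs of half-sites in promoters and first introns and raises genes of cell cycle arrest, DNA repair, apoptosis and metabolism. Growth factor signalling bears on the same loop, because AKT, downstream of PI 3-kinase, phosphorylates MDM2. MCF-10A is known to lack the CDKN2A locus, whose product p14ARF inhibits MDM2. In basal breast epithelium the related factor p63 recognises many of the same sites.

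Total counts were 377093507 to 605972919 in the H1047R libraries, 95533991 to 134245702 in E545K and 95091894 to 136132315 in WT. Protein-coding genes held 77.6 to 78.1% of counts in H1047R, 85.2 to 85.8% in E545K and 85.9 to 86.0% in WT. The coefficient of variation between replicates was 0.212 in H1047R, 0.0289 in E545K and 0.0328 in WT. The fit shared its estimate of spread among all 3 genotypes, with a common value of 0.118. P-values and SE of E545K against WT therefore also rest on the H1047R libraries, and those of H1047R on the tighter groups. The H1047R libraries were deposited in a table of their own, and that table cannot be told apart from the genotype. Of the markers of the labelled epithelium, the 6 basal ones summed to 27030 to 30720 CPM (counts scaled to library size, per 1e+06) in H1047R, 25090 to 25620 in E545K and 29820 to 30460 in WT. By gene, 1 of these 6 rose and 4 fell in each mutant line against WT. Their median log2 fold change was −0.38 in H1047R and −0.23 in E545K. The 6 general epithelial markers summed to 1218 to 1374 CPM in H1047R, 1172 to 1192 in E545K and 2186 to 2265 in WT. Most of that gap was KRT8, at 258 CPM in H1047R, 239 in E545K and 997 in WT. EPCAM also fell in both mutant lines. CLDN4 rose in both, at 69.1 CPM in H1047R, 56.9 in E545K and 24.7 in WT. Of these 6 markers, 2 rose and 4 fell in H1047R, and 1 rose and 5 fell in E545K. The part of these markers in the members' values was not tested. The 6 fibroblast markers summed to 58.5 to 71.7 CPM in H1047R, 59.0 to 62.0 in E545K and 47.7 to 48.5 in WT, nearly all of it COL1A1. Of the 5 fibroblast markers tested, 1 rose and 2 fell in H1047R against WT, both falls at least 2-fold. In E545K against WT 1 of the 5 rose and 0 fell. The 3 endothelial markers summed to 0.383 to 0.421 CPM in H1047R, 0.548 to 0.701 in E545K and 0.782 to 1.08 in WT, with CDH5 under 0.1 CPM in every genotype. The 4 immune markers summed to 2.34 to 2.97 CPM in H1047R, 4.68 to 5.38 in E545K and 4.77 to 5.70 in WT. Nearly all of that was CD14, which fell in H1047R (−1.03), and PTPRC and CD3E averaged under 0.1 CPM in every genotype.

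Most of the 33 p53 targets were higher in both mutant lines than in WT. In H1047R against WT, 26 rose, 2 fell and 5 were not called (edgeR quasi-likelihood test, adjusted p under 0.05 over 26412 genes). That is 78.8% and 6.06% of the members, beside 27.4% and 28.1% of all genes tested. In bulk RNA, fewer cells of a type and less RNA per cell cannot be told apart. In E545K against WT, 24 rose, 3 fell and 6 were not called, which is 72.7% and 9.09% of the members beside 17.7% and 18.9% of all genes. The median log2 fold change of the members was 0.51 in H1047R and 0.39 in E545K, where the median of all genes tested was 0.02 and 0.00. The number of falls in E545K rests on single libraries: it was 1 without WT replicate 1, 2 or 3 or E545K replicate 2 or 3, and 5 without H1047R replicate 3.

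These changes were mostly below 2-fold. TIGAR, TP53INP1, MDM2, RRM2B and ZMAT3 rose at least 2-fold in H1047R, 5 of 33 members or 15.2%, beside 10.0% of all genes, and GADD45A fell that far (3.03%, beside 7.39%). TIGAR, PLK2 and MDM2 rose at least 2-fold in E545K, 3 of 33 members or 9.09%, beside 4.52% of all genes. No member fell that far in E545K, where 2.58% of all genes did. Both comparisons share the WT libraries, so their values are given side by side and are not independent.

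**Figure D1:**
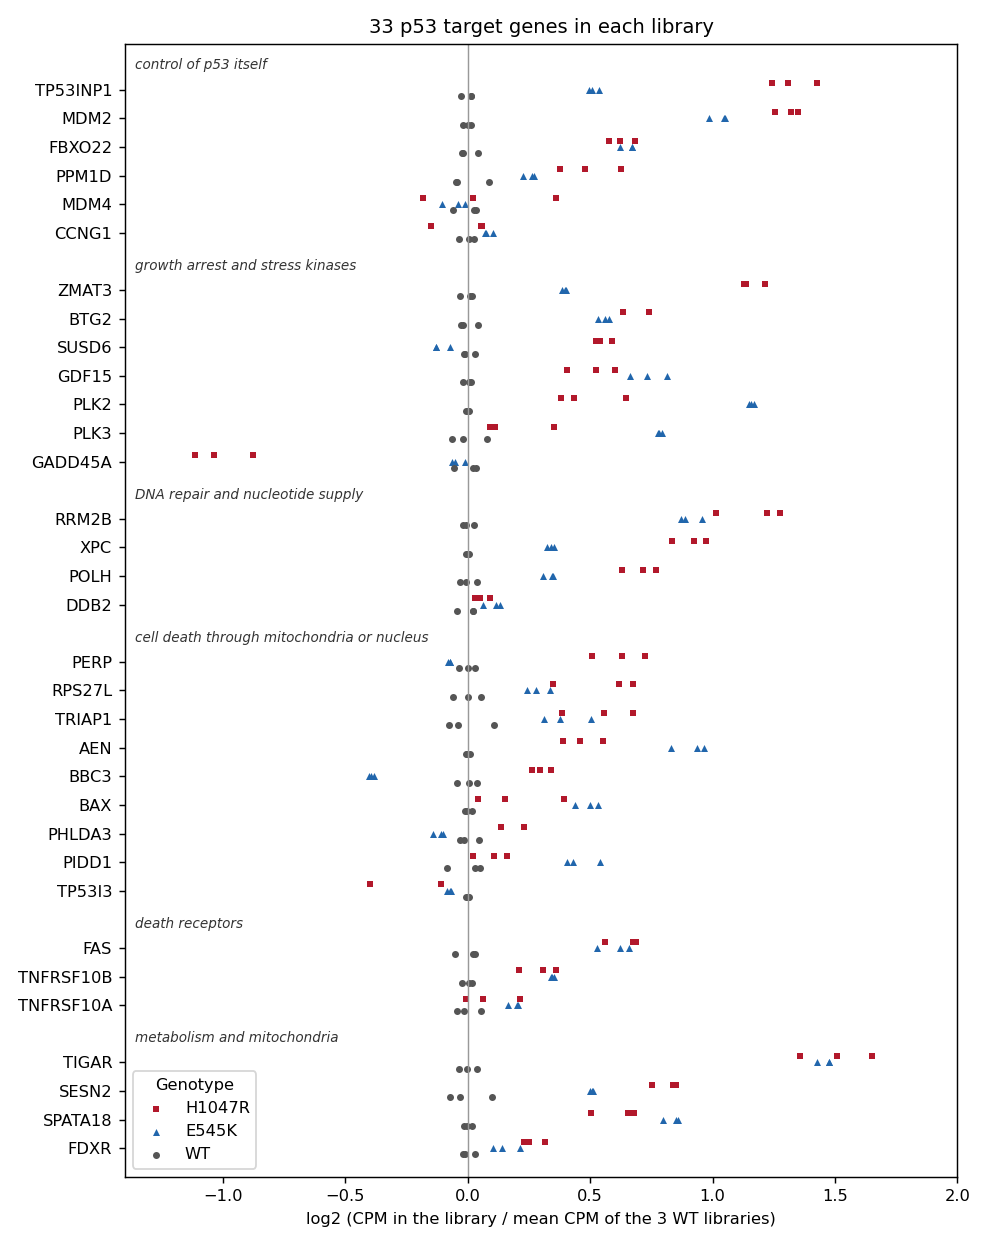
Each point is 1 library, and the horizontal axis is the log2 ratio of its CPM to the mean CPM of the 3 WT libraries, with genes grouped by role. Squares (H1047R) and triangles (E545K) lie right of WT for most of the 33 genes, and GADD45A is the gene farthest to the left, in H1047R.

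Promoter sequence was read for the members with a RefSeq start site in the table at hand (GRCh38.p14, 250 bases before to 50 bases after the start). Of the 33 members, 26 had at least 1 window. The letters searched were the p53 half-site consensus of 10 bases, purines, then C, A or T, A or T and G, then pyrimidines, which reads the same on both strands. It occurs in 6.63% of the 35116 windows of that length and in 6 of the members' 35 windows (17.1%), 1 each in PLK2, AEN, FAS, RPS27L, FDXR and DDB2. A pair of half-sites at most 13 bases apart occurs in 0.0285% of windows, and DDB2, which encodes a damaged-DNA binding protein, is the 1 member with such a pair. The stretches below are shown because p53 binds such letters directly. They belong to the 4 called members with a match and the largest change, and to DDB2, added after its pair was seen. Capitals mark the half-site, and positions count from the transcription start.
PLK2 (chr5:58460199-58460228, minus strand, half-site from −132): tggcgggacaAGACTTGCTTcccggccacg
AEN (chr15:88621296-88621325, plus strand, half-site from −34): agtcggagccGGGCTTGCCCgggcatgtgg
FAS (chr10:88991299-88991328, plus strand, half-site from −122): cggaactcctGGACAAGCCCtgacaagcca
RPS27L (chr15:63157517-63157546, minus strand, half-site from −59): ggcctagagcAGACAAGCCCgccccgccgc
DDB2 (chr11:47214975-47215003, plus strand, half-sites from 6 and 17): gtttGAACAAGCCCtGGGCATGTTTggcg
Annotated exons cover all 250 bases before the start in the FAS window, 53 of them in PLK2, 32 in DDB2, 22 in RPS27L and 3 in AEN. The 5 genes with a single half-site rose in both mutant lines, by 0.27 to 0.64 on the log2 scale in H1047R and by 0.15 to 1.16 in E545K. They are among the 22 of all 33 members that rose in both lines. Of all genes tested, 27.4% rose in H1047R and 17.7% in E545K. Members with and without a match were not tested against each other. DDB2, with the pair, stood at 0.06 in H1047R and 0.10 in E545K and was not called in either. A match is a description of letters, not a site or a cause. MDM2 and TIGAR, which rose further in H1047R, have no exact match in their windows. The search allowed no mismatch, so a site that departs from the consensus would be missed. Letters outside the windows were not searched.

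Among the genes that act on p53 itself, 4 of 6 rose in each mutant line. Counts by role, here and below, stand beside all 33 members, of which 78.8% rose in H1047R and 72.7% in E545K. Of all genes tested, 27.4% and 17.7% rose. No role was tested against the other members. MDM2 (ENSG00000135679.25, hg38 chromosome 12, 68808177 to 68850686, plus strand) stood at 377, 369 and 353 CPM in the H1047R libraries, 306, 293 and 306 CPM in E545K, and 148, 146 and 150 CPM in WT. The 3 genotypes did not overlap at any library. The difference from WT was 1.31 ± 0.04 on the log2 scale (± SE), or 2.48-fold, in H1047R (adjusted p = 1.15e-12) and 1.03 ± 0.04, or 2.04-fold, in E545K (adjusted p = 5.49e-11). Other genes share 9.1% of the exon bases of MDM2. TP53INP1 (chromosome 8, 94925972 to 94949378, minus strand), a stress protein that promotes p53 phosphorylation and autophagy, stood at 118, 128 and 113 CPM in H1047R, 67.7, 69.1 and 67.3 CPM in E545K, and 46.7, 48.2 and 48.2 CPM in WT. Again no library of one genotype reached another. It was 2.51-fold higher in H1047R than in WT (1.33 ± 0.05, adjusted p = 6.26e-12) and 1.43-fold higher in E545K (0.51 ± 0.05, adjusted p = 5.95e-07).

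FBXO22, a ubiquitin ligase subunit that targets methylated p53 together with KDM4A, rose by 0.63 ± 0.04 in H1047R and 0.66 ± 0.04 in E545K, and 16.2% of its exon bases are shared with neighbouring genes. PPM1D, the phosphatase WIP1 that dephosphorylates p53 and its kinases, rose by 0.50 ± 0.06 in H1047R (adjusted p = 8.73e-06) and 0.26 ± 0.07 in E545K (adjusted p = 0.00635). MDM4, a relative of MDM2 that masks the p53 activation domain, stood at 32.5, 37.5 and 47.4 CPM in H1047R, 34.4, 35.9 and 36.7 CPM in E545K, and 37.8, 35.4 and 37.6 CPM in WT. Its genotypes overlapped, and the H1047R difference depended on single libraries: it was 0.08 with all of them, 0.20 and called without H1047R replicate 1, and −0.07 without H1047R replicate 3. CCNG1, cyclin G1, which recruits a phosphatase to MDM2, averaged 201 ± 16.2 CPM in H1047R, 215 ± 2.58 in E545K and 203 ± 4.40 in WT (SD, n = 3 each). CCNG1 was not called in H1047R (−0.01, adjusted p = 0.878) or in E545K (0.08, adjusted p = 0.23), although without H1047R replicate 3 the E545K value of 0.08 was called, as it was with library totals only (0.18), a filter of 1 CPM in 3 libraries (0.10) and 2 groups only (0.09). In H1047R it was 0.06 without H1047R replicate 3 and 0.00 without WT replicate 3.

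RNA of TP63, the gene of p63, fell in both mutant lines. TP63 averaged 140 ± 6.47 CPM in H1047R, 161 ± 3.74 in E545K and 194 ± 2.54 in WT (SD, n = 3 each), a fall of 0.47 ± 0.04 in H1047R and of 0.27 ± 0.04 in E545K. CDKN2A had 0, 0 and 0 counts in H1047R, 6, 2 and 1 in E545K, and 6, 8 and 2 in WT, too few to test. Of 24 p53 family members and regulators, 23 were tested; 9 rose and 7 fell in H1047R (39.1% and 30.4%, beside 27.4% and 28.1% of all genes), and 5 rose and 6 fell in E545K (21.7% and 26.1%, beside 17.7% and 18.9%). The largest rises in H1047R were of the p53 ligase HUWE1 (0.74 ± 0.06), the acetyltransferase EP300 (0.61 ± 0.05), and the kinases ATM (0.54 ± 0.05) and HIPK2 (0.53 ± 0.04). EP300 (−0.40 ± 0.05) and HIPK2 (−0.40 ± 0.04) fell in E545K, where the damage kinase ATR rose by 0.51 ± 0.04. The checkpoint kinase CHEK1 fell by 0.99 ± 0.07 and TP73 by 0.84 ± 0.11 in H1047R. RNA level does not report p53 protein, its modification or its binding, none of which was measured in these files.

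**Figure D2:**
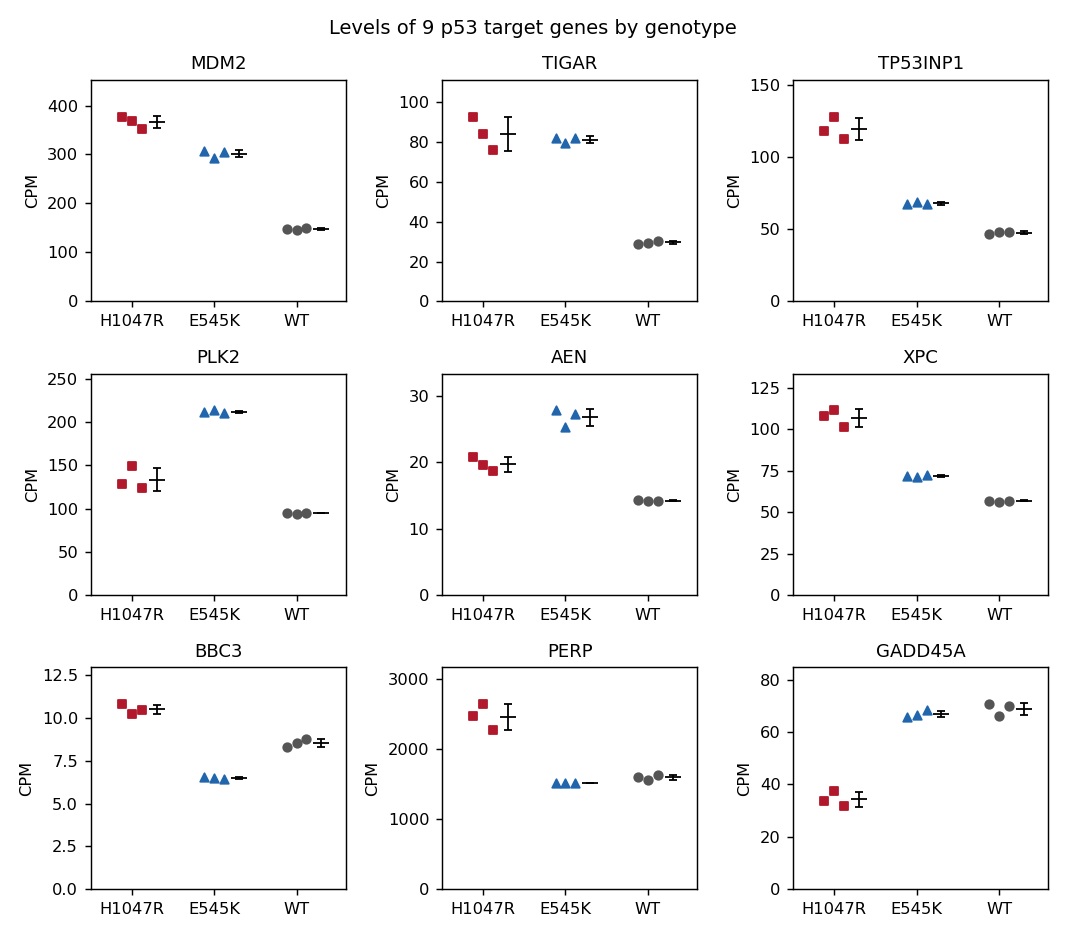
CPM of 9 members in each library, with genotype on the horizontal axis; bars beside the points are the mean ± SD of 3 libraries, and every vertical axis starts at 0. MDM2, TIGAR, TP53INP1 and XPC are higher in both mutant lines, PLK2 and AEN are highest in E545K, PERP is high in H1047R, GADD45A is low there, and BBC3 lies above WT in H1047R and below it in E545K.

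Of the 7 members of growth arrest and stress kinases, 6 rose and 1 fell in H1047R, and 5 rose and 1 fell in E545K. ZMAT3 (chromosome 3, 178960121 to 179072215, minus strand), an RNA-binding protein that acts in tumour suppression by p53, stood at 220, 234 and 222 CPM in H1047R, 133, 132 and 133 CPM in E545K, and 102, 98.8 and 102 CPM in WT. All 3 genotypes were apart, with a difference from WT of 1.16 ± 0.04 in H1047R (adjusted p = 3.09e-12) and 0.39 ± 0.04 in E545K (adjusted p = 1.13e-06). PLK2 (chromosome 5, 58453982 to 58460139, minus strand), a stress-induced polo-like kinase of the centriole cycle, stood at 128, 149 and 124 CPM in H1047R, 211, 213 and 211 CPM in E545K, and 95.2, 94.3 and 95.1 CPM in WT. Here E545K was the highest genotype, 2.23-fold above WT (1.16 ± 0.06, adjusted p = 7.07e-10), and H1047R lay between (0.49 ± 0.06, adjusted p = 2.47e-06). PLK3, a related stress kinase, followed at 0.78 ± 0.07 in E545K. Its rise of 0.19 ± 0.07 in H1047R (adjusted p = 0.0368) was not called without WT replicate 2 (0.18) or 3 (0.16), any 1 of the 3 E545K libraries (0.19 each) or H1047R replicate 3 (0.10), with library totals only (0.15) or with 2 groups only (0.16), and was 0.32 with a GC correction.

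GADD45A (chromosome 1, 67685201 to 67688334, plus strand), a stress protein of arrest and repair, went the other way from most members. It stood at 33.6, 37.5 and 31.9 CPM in H1047R, 65.9, 66.4 and 68.4 CPM in E545K, and 70.6, 66.2 and 69.9 CPM in WT. The H1047R libraries were all below the others, by 2.01-fold against WT (−1.01 ± 0.05, adjusted p = 6.66e-10), and E545K overlapped WT (−0.04 ± 0.05, adjusted p = 0.591). BTG2, an antiproliferative regulator of mRNA decay, rose by 0.71 ± 0.04 in H1047R and 0.56 ± 0.04 in E545K. GDF15, a secreted stress cytokine, rose by 0.51 ± 0.06 in H1047R and 0.74 ± 0.06 in E545K. SUSD6, a membrane protein induced by p53 after damage, stood at 75.1, 77.7 and 74.4 CPM in H1047R, 49.2, 47.3 and 47.2 CPM in E545K, and 51.3, 52.7 and 51.1 CPM in WT. SUSD6 rose by 0.55 ± 0.04 in H1047R (adjusted p = 1.21e-08). Its fall in E545K, by 0.11 ± 0.04 (adjusted p = 0.04), was not called without any 1 of the WT libraries (−0.12, −0.10 and −0.12) or without E545K replicate 2 or 3 (−0.10 each). It was also lost with library totals only (−0.02), no filter (−0.12), the replicate block (−0.11) and a GC correction (−0.08).

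Of the 4 repair genes, 3 rose in each mutant line. RRM2B (chromosome 8, 102204502 to 102239118, minus strand), the p53-induced ribonucleotide reductase subunit that supplies nucleotides for repair, stood at 111, 115 and 95.9 CPM in H1047R, 92.3, 87.9 and 86.9 CPM in E545K, and 48.4, 46.9 and 47.3 CPM in WT. Both mutant lines were clear of WT, at 1.18 ± 0.06 in H1047R (adjusted p = 2.51e-10) and 0.90 ± 0.06 in E545K (adjusted p = 1.32e-08). XPC, the damage sensor of nucleotide excision repair, stood at 108, 111 and 101 CPM in H1047R, 71.9, 71.1 and 72.5 CPM in E545K, and 57.0, 56.4 and 56.8 CPM in WT. Its rise was 0.91 ± 0.04 in H1047R and 0.34 ± 0.04 in E545K, with 23.8% of its exon bases shared with other genes. POLH, the translesion polymerase eta, rose by 0.71 ± 0.04 in H1047R and 0.33 ± 0.05 in E545K.
DDB2, which hands ultraviolet lesions to XPC, stood at 30.8, 30.4 and 31.7 CPM in H1047R, 32.3, 32.6 and 31.0 CPM in E545K, and 30.2, 28.9 and 30.2 CPM in WT. It was not called in H1047R (adjusted p = 0.272) or in E545K (0.10, 95% interval 0.02 to 0.19, adjusted p = 0.0778). The H1047R value was called with upper-quartile (0.11) or protein-coding scaling (0.13). The E545K value was called without H1047R replicate 1 or 3 (0.10 each), with library totals only (0.20), with a filter of 1 CPM in 3 libraries (0.12) and with 2 groups only (0.11).

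Of the 9 members that act in cell death through mitochondria or the nucleus, 7 rose and 1 fell in H1047R, and 5 rose and 2 fell in E545K. AEN (chromosome 15, 88621337 to 88632281, plus strand), a nuclease of apoptotic DNA, stood at 20.8, 19.5 and 18.6 CPM in H1047R, 27.8, 25.2 and 27.2 CPM in E545K, and 14.3, 14.2 and 14.2 CPM in WT. It was 1.38-fold higher in H1047R than in WT (0.47 ± 0.05, adjusted p = 3.44e-06) and 1.88-fold higher in E545K (0.91 ± 0.06, adjusted p = 7.29e-09). BAX, the mitochondrial pore former, rose by 0.49 ± 0.07 in E545K (adjusted p = 7.47e-05). Its level was 28.4, 24.1 and 22.2 CPM in H1047R and 21.4 to 21.9 CPM in WT. That rise of 0.20 ± 0.07 (adjusted p = 0.0254) was not called without any 1 of the 3 WT libraries (0.19 to 0.21) or without H1047R replicate 1 (0.10), nor with 2 groups only (0.17), and was 0.31 with a GC correction.

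BBC3 (PUMA; chromosome 19, 47220822 to 47232766, minus strand), a BH3-only protein that triggers BAX, differed from WT in opposite directions. It stood at 10.8, 10.3 and 10.5 CPM in H1047R, 6.57, 6.51 and 6.46 CPM in E545K, and 8.29, 8.57 and 8.78 CPM in WT. No library crossed between genotypes. The difference from WT was 0.30 ± 0.06 in H1047R (adjusted p = 3.89e-04) and −0.39 ± 0.06 in E545K (adjusted p = 1.09e-04). With a GC correction it was 0.47 in H1047R and −0.24 in E545K, both still called. PERP (chromosome 6, 138088505 to 138107419, minus strand), a desmosome and apoptosis protein that p63 also controls, stood at 2464, 2633 and 2262 CPM in H1047R, 1513, 1505 and 1515 CPM in E545K, and 1595, 1554 and 1626 CPM in WT. It was 1.54-fold higher in H1047R (0.62 ± 0.05, adjusted p = 3.53e-08). In E545K the PERP value was −0.08 ± 0.05 (adjusted p = 0.252), called as a fall without H1047R replicate 3 or with 2 groups only (−0.07 each).

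PHLDA3, which competes with AKT for membrane lipids, stood at 155, 154 and 145 CPM in H1047R, 119, 122 and 123 CPM in E545K, and 130, 136 and 129 CPM in WT. It rose by 0.20 ± 0.04 in H1047R (adjusted p = 6.66e-04), or 0.31 with a GC correction. Its fall by 0.12 ± 0.04 in E545K (adjusted p = 0.0363) was lost without any 1 of the 6 WT and E545K libraries (−0.13 to −0.10), with library totals only (−0.02), no filter (−0.13), the replicate block (−0.12) and a GC correction (−0.03). TRIAP1, a mitochondrial survival protein, rose by 0.54 ± 0.07 in H1047R and 0.40 ± 0.08 in E545K. RPS27L, a ribosomal protein paralogue that p53 induces, rose by 0.55 ± 0.07 in H1047R and 0.29 ± 0.07 in E545K. PIDD1, the scaffold of the caspase-2 platform, rose by 0.46 ± 0.06 in E545K. PIDD1 stood at 0.10 ± 0.06 in H1047R (adjusted p = 0.162), and was called without H1047R replicate 1 (0.13), with upper-quartile (0.16) or protein-coding scaling (0.17) and with a GC correction (0.25). TP53I3, a quinone oxidoreductase of oxidative stress, stood at 111, 111 and 90.9 CPM in H1047R, 113, 114 and 114 CPM in E545K, and 120, 119 and 120 CPM in WT. It fell by 0.20 ± 0.06 in H1047R (adjusted p = 0.0125). That fall was −0.10 and still called without H1047R replicate 3, and −0.08 and not called after a correction for GC content. In E545K the value was −0.07 ± 0.06 (adjusted p = 0.389), called without H1047R replicate 3 or with 2 groups only (−0.07 each).

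Of the 3 death receptors, 2 rose in H1047R and 3 in E545K. FAS rose by 0.64 ± 0.05 in H1047R (adjusted p = 3.96e-08) and 0.60 ± 0.05 in E545K (adjusted p = 2.37e-07), with 39.1, 39.5 and 36.2 CPM in H1047R, 37.8, 35.4 and 38.7 CPM in E545K, and 25.0, 24.9 and 23.7 CPM in WT. Reads of FAS are uncertain, since 40.6% of its exon bases are shared with other genes and strand was not used. TNFRSF10B, the TRAIL receptor DR5, rose by 0.29 ± 0.04 in H1047R and 0.35 ± 0.04 in E545K. TNFRSF10A, the receptor DR4, rose by 0.19 ± 0.05 in E545K (adjusted p = 0.0131), a call lost without WT replicate 1 (0.18) or 2 (0.17) or E545K replicate 2 or 3 (0.18 each). In H1047R TNFRSF10A stood at 0.09 ± 0.05 (adjusted p = 0.165) and was called without H1047R replicate 3 (0.14), with upper-quartile (0.15) or protein-coding scaling (0.16) and with a filter of 1 CPM in 3 libraries (0.13).

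All 4 members of metabolism and mitochondria rose in both mutant lines. TIGAR (chromosome 12, 4307763 to 4360028, plus strand), a phosphatase that lowers glycolytic flux and oxidative stress, had the largest rise of any member. It stood at 92.8, 84.2 and 75.8 CPM in H1047R, 82.2, 79.4 and 82.3 CPM in E545K, and 28.8, 29.5 and 30.4 CPM in WT. The mutant lines overlapped each other and lay far above WT, by 2.85-fold in H1047R (1.51 ± 0.06, adjusted p = 2.62e-11) and 2.75-fold in E545K (1.46 ± 0.06, adjusted p = 1.38e-10). Other genes share 19.4% of the exon bases of TIGAR. SESN2, a sestrin that restrains mTORC1, rose by 0.82 ± 0.05 in H1047R and 0.51 ± 0.05 in E545K. SPATA18, which takes part in mitochondrial quality control, rose by 0.61 ± 0.05 in H1047R and 0.84 ± 0.05 in E545K. FDXR, the mitochondrial ferredoxin reductase, rose by 0.27 ± 0.04 in H1047R (adjusted p = 1.20e-04). Its rise of 0.15 ± 0.05 in E545K (adjusted p = 0.0156) was not called without WT replicate 1 (0.14) or 3 (0.14) or E545K replicate 2 (0.12), nor with no filter (0.14), and with a GC correction FDXR stood at 0.40 in H1047R and 0.26 in E545K.

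**Figure D3:**
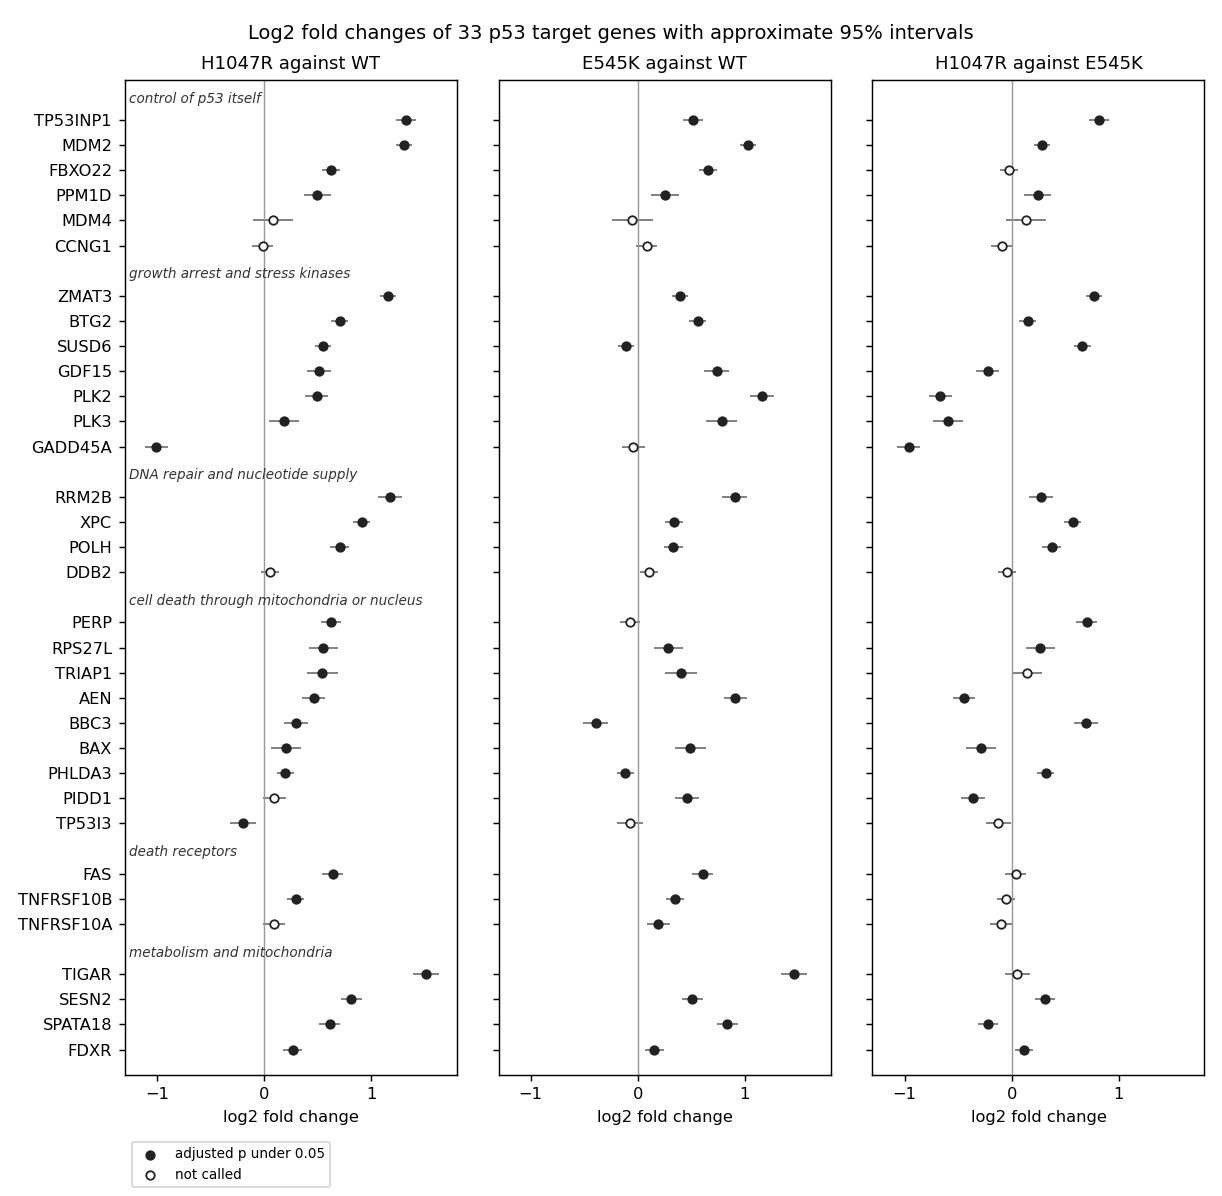
Log2 fold changes of the 33 members with approximate 95% intervals, in H1047R against WT, E545K against WT and H1047R against E545K; filled points passed an adjusted p of 0.05. In the panels against WT most points lie right of 0, with TIGAR at 1.51 in H1047R and 1.46 in E545K, and in the panel between the mutant lines they lie on both sides, from GADD45A at −0.96 to TP53INP1 at 0.82.

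Between the mutant lines the members divided. In H1047R against E545K, 15 rose, 8 fell and 10 were not called, which is 45.5% and 24.2% of members beside 25.9% and 27.3% of all genes. The median of the members was 0.11, where that of all genes was 0.02. No member differed 2-fold, against 7.74% of all genes higher and 7.24% lower. This split depends on scaling: with library totals only, 11 members rose and 14 fell, the median of all genes shifted by −0.14, and 33.2% of calls were rises, against 48.7%. The members' median minus that of all genes was 0.10 under both scalings.

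Rises in H1047R against E545K were led by TP53INP1 (0.82 ± 0.05, adjusted p = 1.66e-09), ZMAT3 (0.77 ± 0.04, adjusted p = 4.03e-10), PERP (0.70 ± 0.05, adjusted p = 1.41e-08), BBC3 (0.69 ± 0.06, adjusted p = 1.22e-07) and SUSD6 (0.66 ± 0.04, adjusted p = 2.35e-09). XPC (0.57 ± 0.04), POLH (0.37 ± 0.04), PHLDA3 (0.32 ± 0.04), SESN2 (0.31 ± 0.05) and MDM2 (0.28 ± 0.04, adjusted p = 2.30e-05) followed. The other rises were of RRM2B (0.27), RPS27L (0.27), PPM1D (0.24), BTG2 (0.15) and FDXR (0.11). The falls were of GADD45A (−0.96 ± 0.05, adjusted p = 1.60e-09), PLK2 (−0.67 ± 0.06, adjusted p = 1.20e-07), PLK3 (−0.59 ± 0.07), AEN (−0.44 ± 0.05, adjusted p = 5.49e-06), PIDD1 (−0.36 ± 0.06), BAX (−0.29 ± 0.07), GDF15 (−0.23 ± 0.06) and SPATA18 (−0.22 ± 0.05). With library totals only, BTG2 (0.01), PPM1D (0.10) and RPS27L (0.13) were no longer called, MDM2 stood at 0.14, PHLDA3 at 0.18, RRM2B at 0.13, SESN2 at 0.17, POLH at 0.23, GDF15 at −0.36 and SPATA18 at −0.36, and TP53I3 (−0.26), TNFRSF10A (−0.24), CCNG1 (−0.23), TNFRSF10B (−0.19), DDB2 (−0.18) and FBXO22 (−0.17) were called as falls. TIGAR did not pass (0.05, 95% interval −0.06 to 0.17), nor did FAS (0.04, −0.06 to 0.13) or FBXO22 (−0.03, −0.11 to 0.06). TIGAR turned to −0.02 without H1047R replicate 1 and was called at 0.13 without H1047R replicate 3 and at 0.11 with protein-coding scaling.
FDXR was near the threshold (0.11, adjusted p = 0.0428) and not called without any 1 WT library, E545K replicate 1 or 3 or H1047R replicate 1 (0.09 to 0.12), nor with the replicate block or 2 groups only (0.11 each). With library totals only FDXR stood at −0.02 and was not called, and with protein-coding scaling it was 0.18. Without H1047R replicate 1, CCNG1 (−0.13), TNFRSF10A (−0.16) and TP53I3 (−0.17) were called as falls and MDM4 (0.25) as a rise. Without H1047R replicate 3, TRIAP1 (0.22) was called, as it was with upper-quartile (0.19) or protein-coding scaling (0.20), no filter (0.19) and a filter of 1 CPM in 3 libraries (0.17). MDM4 was called with no filter (0.18), and BTG2 was not called with a GC correction (0.11).

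Some members also answer immediate-early, ATF4/CHOP or FOXO signals: BTG2, PLK2, PLK3, GADD45A, GDF15, SESN2, TNFRSF10B and BBC3. Of these 8, 7 rose and 1 fell in H1047R against WT (87.5% and 12.5%), with a median log2 fold change of 0.40. In E545K against WT 6 rose and 1 fell (75% and 12.5%), with a median of 0.53. Of the other 25, 19 rose and 1 fell in H1047R (76% and 4%), with a median of 0.55. In E545K 18 of the 25 rose and 2 fell (72% and 8%), with a median of 0.34. Of all genes, 27.4% rose and 28.1% fell in H1047R, and 17.7% rose and 18.9% fell in E545K. In H1047R against E545K, 3 of the 8 rose and 4 fell (37.5% and 50%), and 12 of the 25 rose and 4 fell (48% and 16%). The medians there were −0.14 for the 8 and 0.14 for the 25. Of all genes, 25.9% rose and 27.3% fell there. The part of these other inputs in the results was not tested.

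Of 42 other direct p53 targets, 25 rose and 11 fell in H1047R against WT (median 0.18), which is 59.5% and 26.2% beside 27.4% and 28.1% of all genes. In E545K against WT 23 rose and 9 fell (median 0.23), which is 54.8% and 21.4% beside 17.7% and 18.9%. CDKN1A, the cyclin-dependent kinase inhibitor p21 and the classical target, averaged 464 ± 21.5 CPM in H1047R, 410 ± 3.40 in E545K and 274 ± 6.52 in WT (SD, n = 3 each). CDKN1A rose by 0.76 ± 0.04 in H1047R (adjusted p = 6.73e-10) and 0.58 ± 0.04 in E545K (adjusted p = 3.62e-08). The apoptosis gene CDIP1 had 2.36 CPM in H1047R, 2.22 in E545K and 0.494 in WT, a rise of 2.25 ± 0.14 in H1047R and 2.16 ± 0.14 in E545K. The ceramidase ACER2 rose by 1.55 ± 0.07 in H1047R and 1.12 ± 0.08 in E545K. PMAIP1 (NOXA), a BH3-only protein like BBC3, rose by 1.26 ± 0.09 in H1047R and 1.62 ± 0.09 in E545K. ABHD4 fell by 1.11 ± 0.05 in H1047R and 0.76 ± 0.05 in E545K. Of the 42, 7 rose and 5 fell at least 2-fold in H1047R, and 6 rose and 3 fell that far in E545K. Of all genes, 10.0% and 7.39% did so in H1047R, and 4.52% and 2.58% in E545K. In H1047R against E545K, 12 of the 42 rose and 14 fell, 28.6% and 33.3%, near the 25.9% and 27.3% of all genes.

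Genes that p53 is known to repress through p21 and the DREAM complex, a set of cell division genes, differed between the mutant lines. All 20 listed fell in H1047R against WT, with a median log2 fold change of −2.00, and all 20 fell in H1047R against E545K, with a median of −2.27. Of all genes, 28.1% and 27.3% fell in these comparisons. In E545K against WT, 11 rose and 1 fell (55% and 5%, beside 17.7% and 18.9% of all genes), with a median of 0.21. MYBL2 averaged 2.85 ± 0.635 CPM in H1047R, 29.5 ± 0.557 in E545K and 27.7 ± 0.932 in WT, a fall of 3.30 ± 0.11 in H1047R (SD, n = 3 each, and SE). CDC20 averaged 3.17 ± 0.476 CPM in H1047R, 28.5 ± 0.371 in E545K and 28.3 ± 1.24 in WT. CDK1 averaged 3.84 ± 0.495 CPM in H1047R, 13.3 ± 0.881 in E545K and 8.08 ± 0.257 in WT, and was higher in E545K than in WT by 0.72 ± 0.09 (adjusted p = 1.30e-05). The part of cell division rate in the members' values was not tested.

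**Figure D4:**
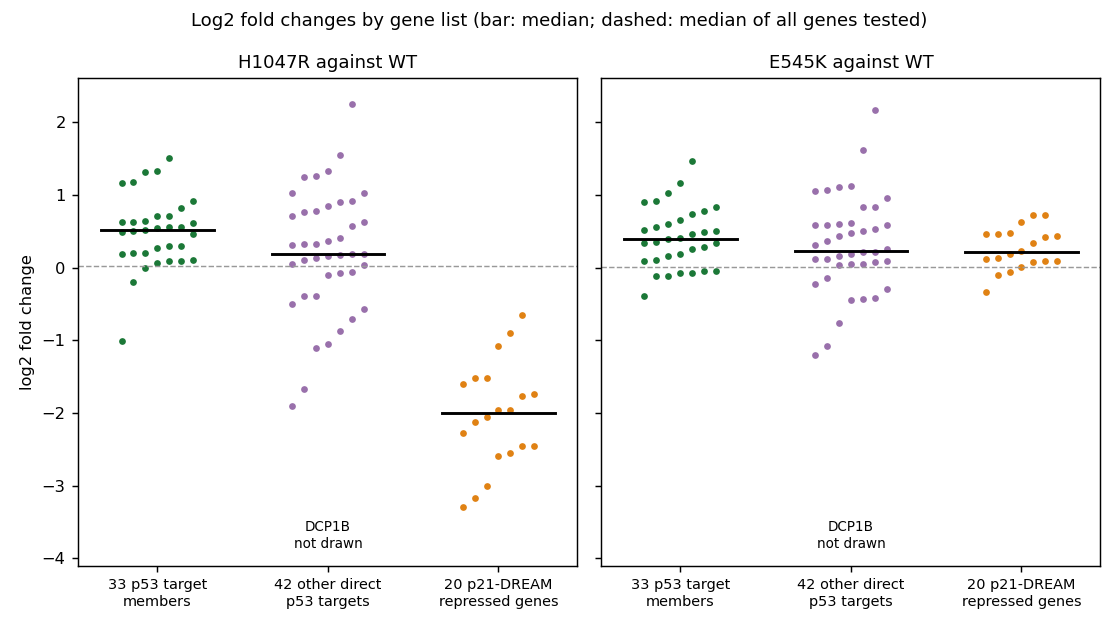
Log2 fold changes of the 33 members, 42 other direct p53 targets and 20 genes repressed through p21 and DREAM, in H1047R against WT and E545K against WT; each point is a gene, bars are medians, the dashed line is the median of all genes tested, and DCP1B is not drawn. Members lie mostly above 0 in both panels, and the repressed genes lie at a median of −2.00 in H1047R and 0.21 in E545K.

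Levels between genes were compared as CPM per kilobase of exon. PERP was the most abundant member in every genotype, at 584 CPM per kb in H1047R, 360 in E545K and 379 in WT, where it made up 47.0% of the members' summed level. CCNG1 came next at 65.0 in H1047R, 69.4 in E545K and 65.5 in WT. GADD45A ranked 13 of the 33 in H1047R, 7 in E545K and 5 in WT, and PLK2 ranked 7 in H1047R, 4 in E545K and 8 in WT. BBC3, PLK3, AEN and FBXO22 were the 4 lowest in WT, at 2.69, 2.62, 2.38 and 2.19 CPM per kb.

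The pattern of MDM2 over the 9 libraries was compared with that of 10308 other genes averaging at least 10 CPM, by Pearson correlation. These 9 values form 3 genotype groups, so the coefficient mainly ranks genes by the order and spacing of the genotypes and is a description. The closest were LRRC8E (0.9986), PCDHAC1 (0.9985), PSD3 (0.9981), MYPN (0.9978) and ENSG00000256664 (0.9977), of which the last shares exons with MDM2 and PCDHAC1 shares exons with other genes. Among the members, RRM2B and BTG2 ranked 30 and 31, both at 0.994, TIGAR ranked 84 at 0.982 and FAS 109 at 0.979. GADD45A (−0.683) and TP53I3 (−0.625) ran opposite to MDM2.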

How the data were processed

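The deposited values are raw gene counts, in 2 tables that the authors made with featureCounts 2.0.0 on the GENCODE 32 annotation of hg38, per the file headers. Per the same headers, exons were counted without strand, and reads overlapping several genes counted for each. STAR, SAMtools 1.5, Trim Galore 0.4.0, FastQC and cutadapt are listed, without roles, in the submitters' processing notes. All count columns were used. Of 60609 identifiers, 60295 matched a GENCODE 44 name.

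A quasi-likelihood model with genotype as its term was fitted to the counts of the 9 libraries together in edgeR 4.0.16 (R 4.3.3), after filterByExpr and TMM scaling. P-values were adjusted by Benjamini-Hochberg over the 26412 genes kept. Genes were called at adjusted p under 0.05; a second rule added 2-fold. CPM use TMM-scaled totals. SE is the log2 fold change divided by the square root of F. The model was tested on data simulated with 1 spread for all libraries, so not with the unequal spread of these genotypes. Alternatives were scaling, filters, DESeq2 1.42.0, left-out libraries, a replicate block, 2-group fits and, chosen after seeing the data, GC correction. A count of 0 allows up to 3 counts, for counting error only.

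Members, lists and roles were chosen with earlier results of these data known. All members were named, with TP63, CDKN2A and CDKN1A; of other lists, up to 4 of the largest called rises and falls per comparison. Results of some other genes are not reported here.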

Additional observations from a re-analysis of the deposited data

Results flagged for a closer look

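For 3 members the difference between the mutant lines was itself called and, at the settings used throughout, the lines were also called in opposite directions against WT: higher in H1047R, lower in E545K. This held in every alternative for BBC3 and not for SUSD6 or PHLDA3. BBC3 differed by 0.6918 on the log2 scale in H1047R against E545K (adjusted p = 1.22e-07), with all 3 H1047R libraries above and all 3 E545K libraries below WT, and all 19 alternatives kept its 3 calls. SUSD6 differed by 0.661 (adjusted p = 2.35e-09) and PHLDA3 by 0.3161 (adjusted p = 1.07e-05). The fall in E545K against WT is not firm for these 2 genes. For PHLDA3 it was −0.12 and lost its call in 11 of 19 alternatives, with −0.02362 under library totals only. For SUSD6 it was −0.11 and lost its call in 10 of 19, with −0.01629 under library totals only. The H1047R libraries stand in their own table with larger totals, and what part this plays was not tested. Exon bases shared with other genes amount to 18.4% for PHLDA3 and 2.52% for BBC3, and SUSD6 has none.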

How the results depend on the processing

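Over 19 alternatives, 1755 of 1881 member values kept direction and call, 57 lost a call with the same sign, 43 gained one and 26 changed sign. Of those that changed sign, 0 passed the threshold in the alternative. FDXR in H1047R against E545K, with library totals only, both changed sign and lost its call. Calls and directions held throughout for 23 of 27 members called in E545K against WT (not PHLDA3, TNFRSF10A, FDXR, SUSD6), 25 of 28 in H1047R against WT (not TP53I3, PLK3, BAX) and 19 of 23 in H1047R against E545K (not BTG2, FDXR, PPM1D, RPS27L). Leaving out 1 library gave 22 to 26 rises and 1 to 5 falls in E545K against WT, 24 to 27 and 2 in H1047R against WT, and 14 to 17 and 8 to 11 in H1047R against E545K. Falls in E545K against WT numbered 1 with library totals only, no filter, the replicate block, GC correction or GC correction with the block, and 5 with 2 groups only. In H1047R against WT GC correction left 1 fall, with or without the block. In H1047R against E545K library totals only gave 14 falls. The replicate block gave 24 rises in E545K and 26 in H1047R against WT, and 14 rises and 8 falls between the lines; same-numbered libraries did not deviate together (correlations −0.0707 to 0.087).

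Values that changed sign were, in E545K against WT, MDM4 0.04131, TP53I3 0.01847, PERP 0.01774 and GADD45A 0.04977 with library totals only, and TP53I3 0.01481 with GC correction and 0.01438 with the block added. In H1047R against WT they were CCNG1, at 0.04324 (upper-quartile), 0.05634 (protein-coding scaling), 0.02339 (no filter), 0.02619 (1 CPM filter), 0.001963 without WT replicate 3 and −0.0432 to 0.05974 over the left-out libraries, and MDM4, at −0.07101 to 0.2022 over the left-out libraries and −0.009692 (GC correction and block). In H1047R against E545K they were TIGAR −0.08789, FAS −0.1015 and FDXR −0.02286 with library totals only; DDB2 0.001646 and FBXO22 0.01787 with upper-quartile scaling; TNFRSF10B 0.01127, DDB2 0.02006 and FBXO22 0.03636 with protein-coding scaling; FBXO22 0.01513 with no filter; and, over the left-out libraries, TIGAR −0.02095 to 0.1268, MDM4 −0.0195 to 0.2535 and FBXO22 −0.05481 to 0.001758. The cause was not tested. The lowest member count, 648, leaves no member at the counting floor.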

Other observations

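Of the 42 other direct p53 targets, DCP1B, a subunit of the mRNA decapping enzyme, was at or near the counting floor in both mutant lines. It had 0, 0 and 0 counts in H1047R, 8, 9 and 2 counts in E545K, and 586, 381 and 362 counts in WT. Against a floor of 3 counts over the group, it was at least 2039-fold lower in H1047R than in WT, and it was 76.7-fold lower in E545K than in WT. E2F7, a transcriptional repressor of the cell cycle that p53 induces, averaged 2.72 ± 0.290 CPM in H1047R, 8.22 ± 0.0456 in E545K and 3.83 ± 0.253 in WT (SD, n = 3 each). E2F7 rose by 1.10 ± 0.09 in E545K (edgeR adjusted p = 1.93e-07) and fell by 0.50 ± 0.09 in H1047R (adjusted p = 2.33e-04).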
